A study of Homo sapiens with 18 samples.

Results

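IT (isolated tissue), small pieces of human osteosarcoma (OS) tumor cut from nude mice and kept in a dish for 14 days, was compared with D-2, the same cell line grown flat on plastic for 14 days. The comparison took 6 libraries of the 18 in the series, the 3 of IT and the 3 of D-2, chosen by the sample labels alone. All groups were labelled as the cell line Saos-2 (spelled Soas-2 in the labels), an established human OS line, with genotype WT. For IT, Saos-2 cells were injected under the skin of female BALB/c nude mice in Matrigel, the tumors were excised, and trimmed pieces were laid on Matrigel in complete medium. D-2 cells did not pass through an animal. The other 4 groups, used here only for levels side by side and for 1 comparison that shares no library, were D-3 (cells grown in 3D for 14 days), DP-3 (cell-printed tissue on day 14 and on day 1) and FIT (fresh tumor, not cultured).

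A flat culture gives cells a stiff surface and plenty of oxygen and nutrients. In a piece of tissue, cells touch each other and matrix on all sides, and supply depends on diffusion. Stiffness and cell spreading are known to act through actin, whose assembly frees the cofactors of serum response factor (SRF), and through YAP, a coactivator of TEAD transcription factors. Dividing cells switch on mitosis genes in late cell cycle phases, whereas stressed cells use other factors, such as ATF4 when amino acids are short, HIF when oxygen is low and NF-kB in inflammation.

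The total of the estimated counts was 57049025 to 66769999 in IT and 73805740 to 79082786 in D-2. Levels are given in FPKM, fragments per kilobase of transcript scaled to the mapped fragments of a library, and 20539 to 21813 genes had 0.1 FPKM or more in IT, against 17716 to 18109 in D-2. Of 19721 genes tested, 2498 were differentially expressed (DEGs), which is 12.7%. Genes with at least 0.1 FPKM in 3 of the 6 libraries were tested. A gene was called a DEG when its fold change was at least 2 and its p, adjusted by the Benjamini-Hochberg procedure, was below 0.05 in the quasi-likelihood test of edgeR. In IT, 1944 genes were upregulated (9.86% of those tested) and 554 were downregulated (2.81%). Log2 fold changes are IT over D-2 on counts scaled by TMM, so a value above 0 means higher in IT, and errors given with them are standard errors (SE). The 3 IT libraries lay wholly above or wholly below the 3 D-2 libraries for 9630 genes (48.8%), a share that has to be kept in mind when single genes are said not to overlap. They lay wholly above for 6329 genes and wholly below for 3301. An exact permutation test on 3 libraries against 3 cannot give a p below 0.1, so p-values come from the fit across all genes. The labels do not say whether replicates came from separate mice or dishes, and p-values therefore measure the spread between these libraries, which may be technical.

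The count of DEGs fell whichever library was left out, and most without a D-2 library. It was 1414, 2124 and 1978 without IT replicates 1, 2 and 3, and 537, 515 and 1117 without D-2 replicates 1, 2 and 3. Leaving out IT replicates 1, 2 and 3 left 1016, 1424 and 1546 genes upregulated and 398, 700 and 432 downregulated. For D-2 replicates 1, 2 and 3 these were 416, 387 and 873 and 121, 128 and 244. Between 18268 and 19272 genes were tested in these fits. Counts within gene lists in the same fits are to be read beside these totals. Fits on 5 libraries have 3 residual degrees of freedom in place of 4. The highest adjusted p of FGG and CDH2, called in all 18 alternative fits, was 0.0475, close to the 0.05 limit. DDIT4 kept log2 fold changes of 3.29 to 3.58 without D-2 replicate 1, 2 or 3, at adjusted p = 0.0501 to 0.0623. A call can thus be lost in such a fit while the fold change stays, and the part of lower power was not tested. The median SD of log2 FPKM within a group was 0.344 in IT and 0.161 in D-2. IT replicate 3 stood apart from the other IT libraries, with a Pearson correlation of log2 FPKM across genes of 0.925 to 0.926 with them, against 0.957 between IT replicates 1 and 2 and 0.974 to 0.976 among the D-2 libraries. Correlations with the D-2 libraries were 0.926 to 0.931 for IT replicate 1 and 0.935 to 0.942 for IT replicate 2. For IT replicate 3 they were 0.890 to 0.898. By this measure IT replicates 1 and 2 were about as close to D-2 as to IT replicate 3, or closer. Results are therefore given for each library.

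**Figure D1:**
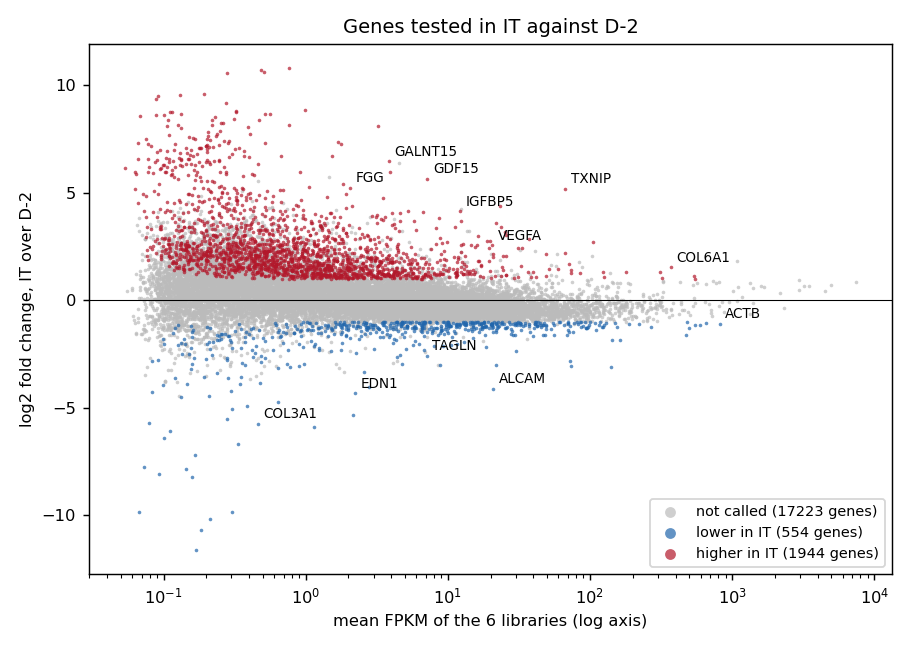
Each point is 1 of the 19721 genes tested, with the mean FPKM of the 6 libraries on a log axis and the log2 fold change of IT over D-2. The 1944 upregulated genes (red) outnumber the 554 downregulated genes (blue).

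The kind of transcript moved with the direction. Among the genes tested, 13102 were protein-coding and had a median log2 fold change of -0.07, with 1052 upregulated and 476 downregulated. Long non-coding genes numbered 3576, with a median of 0.93, 623 upregulated and 40 downregulated. They took 1.53% to 2.50% of all counts in IT and 1.06% to 1.11% in D-2. In a fit on protein-coding genes alone, chosen after seeing the data, 1283 genes were upregulated and 331 downregulated. The part of this shift in the calls of single genes was not tested. Genes of the mitochondrial genome took 4.57% to 6.21% of counts in IT and 2.13% to 3.96% in D-2, and none of the 13 that encode proteins was a DEG, with a median log2 fold change of 0.63.

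Tumor pieces can hold mouse cells, and bulk values cannot tell fewer cells of a type from less RNA per cell. The values are on human genes, and how far mouse reads were counted on them is not known. Low values of a marker therefore cannot show that mouse cells of that type were absent. Of the 15 leukocyte markers, 8 were at or under the detection limit of 12 counts in every IT library, including TYROBP, C1QA and C1QB at 0 FPKM. PTPRC, which marks all leukocytes, was at most 0.00598 FPKM in IT. The summed FPKM of the leukocyte list was 49.8 to 71.0 in IT and 48.9 to 51.8 in D-2, and most of it came from CD68, a lysosomal protein, at 42.5, 41.7 and 64.1 FPKM in IT and 42.1, 41.1 and 43.9 in D-2. LAPTM5, another lysosomal membrane protein, was the 1 DEG of the 6 tested (16.7% against 2.81%), and it was downregulated in IT (log2 fold change -2.01). No red blood cell marker passed the FPKM minimum, and HBB was at most 0.0606 FPKM. Of 16 skeletal muscle markers, 8 were at or under the limit, and their sum was 0.790 to 1.37 FPKM in IT and 0.233 to 0.644 in D-2. Among 10 tested fibroblast markers, 0 were upregulated and 2 were downregulated (20% against 2.81% of all genes tested), the collagen COL3A1 and the surface protein THY1. Of 4 tested smooth muscle markers, ACTA2 was downregulated (25% against 2.81%), of 4 tested keratinocyte markers KRT15 was upregulated (25% against 9.86%), and of 3 tested adipocyte markers 0 were called. THY1 lost its call without IT replicate 1 or D-2 replicate 1, 2 or 3 (adjusted p = 0.0705 to 0.0821) and without IT replicate 3 by a change under 2-fold (log2 fold change -0.85, adjusted p = 0.0461), KRT15 without IT replicate 1 or 2 or D-2 replicate 1, 2 or 3 (adjusted p = 0.0579 to 0.102) and ACTA2 without IT replicate 2 or D-2 replicate 1, 2 or 3 (adjusted p = 0.0511 to 0.0761).

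Endothelial markers were partly higher in IT. Of 6 tested, PECAM1 and CDH5, both adhesion proteins of vessel walls, were upregulated (33.3% against 9.86%). Of the 6, 4 lay wholly above D-2 and 1 wholly below, against 6329 and 3301 of all 19721 genes tested. ENG, another tested member, was lower in IT without being called, with log2 fold changes of -0.93 to -0.67 over 18 alternative fits. PECAM1 had an FPKM of 5.01, 3.29 and 3.76 in IT and 1.55, 1.41 and 1.42 in D-2, so the groups did not overlap (log2 fold change 1.29 ± 0.17). CDH5 had 0.874, 1.34 and 0.320 FPKM in IT and 0.0762, 0.0522 and 0.104 in D-2. CDH5 lost its call without D-2 replicate 1 or 2 (adjusted p = 0.0607 to 0.0624). KDR, the main VEGF receptor of endothelium, was at most 0.00864 FPKM in IT, and VWF at most 0.0582. The sum of the 11 markers was 56.7 to 75.4 FPKM in IT and 62.8 to 64.0 in D-2. Most of that sum came from markers other than PECAM1 and CDH5. The part of mouse reads in these values was not tested.

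Genes of the osteoblast lineage were looked at in the same way. SPARC, a matrix protein of bone and many other tissues, was abundant at 111, 143 and 289 FPKM in IT and 154, 158 and 171 in D-2, and RUNX2, the master regulator of the lineage, was present at 0.904, 2.38 and 0.902 and 0.752, 0.815 and 0.713 FPKM. Other markers of the lineage, IBSP, SP7 and ALPL, were absent or nearly so in both groups. The markers as a whole therefore did not bear out an osteoblast-like state, and the identity of the cells was not tested. IBSP was at 0 FPKM in all 6 libraries, SP7 was at most 0.0278 and ALPL at most 0.0635 FPKM in IT, and neither was above 0.0142 in D-2. Of 11 tested genes of the osteoblast list, 1 was upregulated (9.09% against 9.86%), PHEX, a peptidase of mineral metabolism (log2 fold change 1.25 ± 0.28), and 0 were downregulated. PHEX lost its call without D-2 replicate 1, 2 or 3 (adjusted p = 0.0689 to 0.0833) and without IT replicate 1 by a change under 2-fold (log2 fold change 0.99, adjusted p = 0.047).

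Cell division genes were lower in IT. Of 24 mitosis genes tested, 21 were downregulated and 0 upregulated (87.5%, against 2.81% of all genes tested), with a median log2 fold change of -1.24 against 0.10 over all genes. All 24 were lower in every IT library than in every D-2 library, as were 3301 of all 19721 genes tested. The median difference of each IT library from D-2 on the log2 FPKM scale was -0.94, -0.74 and -1.59 for replicates 1, 2 and 3. CCNB2, a cyclin that drives entry into mitosis, had an FPKM of 13.7, 14.5 and 11.7 in IT and 27.2, 28.0 and 28.9 in D-2 (log2 fold change -1.24 ± 0.12, adjusted p = 0.00627). KIF20A, a kinesin of cytokinesis, had 10.3, 14.4 and 14.2 FPKM in IT and 28.4, 31.8 and 31.0 in D-2. TTK, a spindle checkpoint kinase, had 8.53, 7.89 and 5.60 FPKM against 15.0, 16.4 and 15.4. The most abundant member was UBE2C, which tags cyclins for destruction, with 90.8, 94.5 and 50.4 FPKM against 171, 164 and 169.9. In each of these 4 genes the groups did not overlap, and in CCNB2, TTK and UBE2C replicate 3 was the lowest of IT. CCNB2, KIF20A and TTK were DEGs in all 18 alternative fits, and UBE2C lost its call without D-2 replicate 1, 2 or 3 (adjusted p = 0.0526 to 0.0606) and without IT replicate 3 by a change under 2-fold (log2 fold change -0.99, adjusted p = 0.00365). Downregulated mitosis genes numbered 14, 21 and 11 without IT replicates 1, 2 and 3, and 4, 4 and 9 without D-2 replicates 1, 2 and 3. Of the 18268 to 19272 genes tested in these fits, 398, 700, 432, 121, 128 and 244 were downregulated, in the same order. CDK1, TOP2A and FOXM1 were the members not called, with log2 fold changes of -0.96, -0.74 and -1.81.

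DNA replication genes were lower as well, with less margin. Of 24 tested, 6 were downregulated and 0 upregulated (25% against 2.81%), and the median was -0.99. All 24 had a log2 fold change below 0, and 23 lay wholly below D-2, against 3301 of all 19721 genes tested. TK1, the thymidine kinase of the salvage pathway, had an FPKM of 43.0, 47.5 and 19.5 in IT and 105, 101 and 95.2 in D-2 (log2 fold change -1.62 ± 0.32). PCNA, the sliding clamp of DNA polymerase, was at 92.4, 86.3 and 46.8 and 152, 128 and 119 FPKM and was just under a 2-fold change (log2 fold change -0.99, adjusted p = 0.0356). Replicate 3 was the lowest IT library in both, and the median difference of the list was -1.70 there against -0.53 and -0.52 in replicates 1 and 2. Downregulated replication genes numbered 3, 9 and 3 without IT replicates 1, 2 and 3, and 0, 0 and 0 without D-2 replicates 1, 2 and 3. TK1 lost its call without D-2 replicate 1, 2 or 3 (adjusted p = 0.0521 to 0.0623).

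Promoters of mitosis genes are known for a CCAAT box, bound by NF-Y, and a cell cycle genes homology region (CHR), bound by MuvB complexes. These letters were searched after the counts above were known, on both strands of RefSeq promoters (GRCh38.p14, 250 bases before and 50 from the start site on, the start listed first for each gene). Of the 24 mitosis genes, 18 had a promoter in the table. TTTGAA, the CHR core, was in 12 of the 18 (66.7%) and in 15.4% of all 27305 promoters. CCAAT was in 14 of the 18 (77.8%) and in 35.7% of all. The promoters of CCNB2 and CDC20 are shown because these are the called genes with the smallest p that hold both. Capitals mark TTTGAA and CCAAT on either strand (TTCAAA and ATTGG on the printed strand are the reverse forms), and none of these letters is shown here to be a working site. CCNB2 is printed from chr15:59104896-59105195 (plus strand), with TTTGAA starting 29 bases before the start site and 4 CCAAT boxes. CDC20 is printed from chr1:43358731-43359030 (plus strand), and its TTTGAA on the printed strand starts 65 bases before the start site.
CCNB2: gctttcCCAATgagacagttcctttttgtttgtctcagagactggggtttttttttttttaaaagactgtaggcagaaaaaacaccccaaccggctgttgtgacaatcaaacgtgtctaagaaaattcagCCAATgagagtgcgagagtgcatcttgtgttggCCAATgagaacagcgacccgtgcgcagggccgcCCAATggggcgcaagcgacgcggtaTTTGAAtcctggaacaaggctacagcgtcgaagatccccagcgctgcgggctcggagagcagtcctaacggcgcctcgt
CDC20: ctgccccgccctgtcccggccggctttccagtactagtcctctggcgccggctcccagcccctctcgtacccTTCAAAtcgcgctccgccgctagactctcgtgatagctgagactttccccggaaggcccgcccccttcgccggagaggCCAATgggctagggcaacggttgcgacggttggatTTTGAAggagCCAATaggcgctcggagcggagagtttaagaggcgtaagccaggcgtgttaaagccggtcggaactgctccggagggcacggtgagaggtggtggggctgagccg
CDC20, the activator of the anaphase-promoting complex, had an FPKM of 59.9, 73.6 and 45.0 in IT and 135, 132 and 129 in D-2, without overlap (log2 fold change -1.31 ± 0.19).

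**Figure D2:**
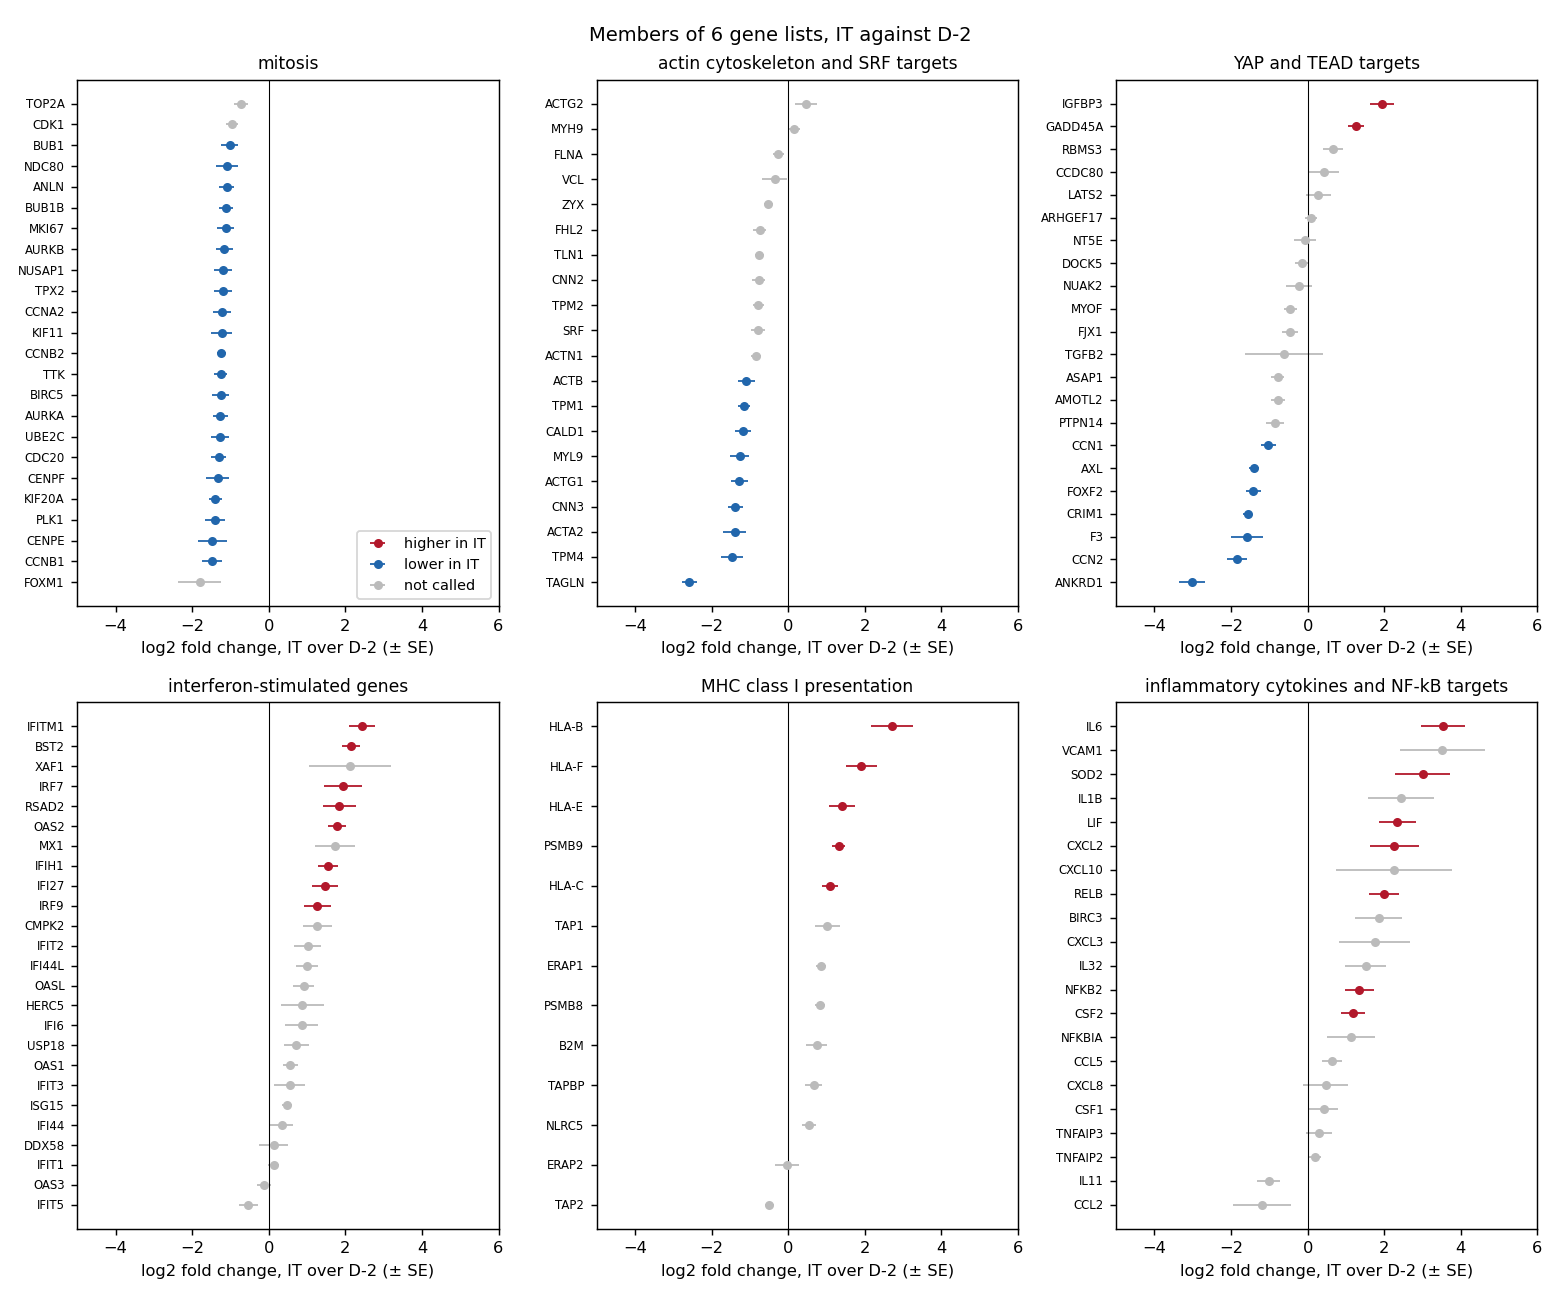
Points are log2 fold changes of IT over D-2 with SE bars for tested members of 6 gene lists, in red where upregulated, blue where downregulated and grey where not called. All 24 mitosis genes lie below 0, whereas 23 of the 25 interferon-stimulated genes drawn lie above it.

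Part of the actin genes and SRF targets was downregulated in IT. Of 20 tested, 9 were downregulated and 0 upregulated (45% against 2.81%), and the median was -0.82. Of the 20, 16 lay wholly below D-2, against 3301 of all 19721 genes tested. TAGLN (transgelin), an actin-binding protein and classic SRF target, had an FPKM of 1.72, 2.35 and 2.64 in IT and 13.4, 11.7 and 11.0 in D-2 (log2 fold change -2.59 ± 0.20, adjusted p = 0.00524). TPM1, a tropomyosin that stabilises filaments, had 11.2, 16.1 and 14.1 FPKM against 27.7, 27.7 and 26.8. For both genes the groups did not overlap. The cytoskeleton also led the list of abundant genes that fell. ACTB, cytoplasmic actin, had 678, 625 and 397 FPKM in IT and 1151, 997 and 1074 in D-2, and ACTG1, the other cytoplasmic actin, had 287, 416 and 238 against 712, 673 and 645. PFN1 (profilin), which feeds actin monomers to filaments, had 353, 498 and 340.3 FPKM against 815, 779 and 784. The tubulins TUBB and TUBA1B had log2 fold changes of -1.07 and -1.13. Downregulated members of the actin and SRF list numbered 7, 8 and 8 without IT replicates 1, 2 and 3, and 3, 4 and 5 without D-2 replicates 1, 2 and 3. ACTB lost its call without D-2 replicate 1, 2 or 3 (adjusted p = 0.0579 to 0.067) and without IT replicate 3 by a change under 2-fold (log2 fold change -0.86, adjusted p = 0.00598), and TUBA1B without D-2 replicate 1, 2 or 3 (adjusted p = 0.0533 to 0.0623) and without IT replicate 3 by a change under 2-fold (log2 fold change -0.90, adjusted p = 0.00589). TUBB lost its call without IT replicate 3 by a change under 2-fold (log2 fold change -0.94, adjusted p = 0.00392), PFN1 without D-2 replicate 1 or 2 (adjusted p = 0.0513 to 0.0527) and ACTG1 without D-2 replicate 1 or 2 (adjusted p = 0.0543 to 0.0584). ACTB was close to the 2-fold limit, with a log2 fold change of -1.09. TPM1 lost its call without IT replicate 1 by a change under 2-fold (log2 fold change -0.98, adjusted p = 0.021).

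Several targets of YAP and TEAD were downregulated. Of 22 tested, 7 were downregulated (31.8% against 2.81%) and 2 upregulated (9.09% against 9.86%), with a median of -0.54. ANKRD1, a nuclear repressor and standard YAP readout, had an FPKM of 8.05, 4.94 and 3.12 in IT and 42.9, 38.3 and 34.6 in D-2 (log2 fold change -3.02 ± 0.34). CCN2, a matricellular growth factor and another standard readout, had 61.1, 49.9 and 92.5 FPKM against 248, 225 and 178. The groups did not overlap in either gene. AXL, a receptor tyrosine kinase, had 59.0, 63.3 and 76.6 FPKM against 162, 158 and 148, and CRIM1, a membrane protein that binds BMPs, had 15.7, 15.7 and 14.6 against 44.1, 41.1 and 36.2. All 4 were DEGs in the 18 alternative fits. The 2 upregulated members were IGFBP3 and GADD45A, named after their values were seen (log2 fold change 1.95 and 1.26). Whether the activity of YAP or TEAD differed was not tested. The number of downregulated members was 5, 8 and 8 without IT replicates 1, 2 and 3, and 5, 5 and 5 without D-2 replicates 1, 2 and 3, and of upregulated members 2, 2 and 2 without IT replicates 1, 2 and 3, and 0, 0 and 2 without D-2 replicates 1, 2 and 3. GGAATG, a TEAD site, was in the promoters of 7 of the 16 members in the RefSeq table (43.8%), ANKRD1 and CCN2 among them, and in 14.05% of all promoters.

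Secreted and adhesion genes made up most of the 10 largest decreases. EDN1 (endothelin 1), a peptide that contracts vessels, had an FPKM of 0.0686, 0.276 and 0.353 in IT and 5.13, 4.51 and 3.06 in D-2 (log2 fold change -4.33 ± 0.60). THBS1 (thrombospondin 1), which activates latent TGF-beta, had 12.3, 17.2 and 22.2 against 144, 136 and 106 FPKM. ESM1, a proteoglycan named for endothelium, had 1.78, 2.96 and 1.62 against 15.4, 14.5 and 16.5. IT was below D-2 in every library for these 3 genes, each a DEG in all 18 alternative fits. ALCAM, a cell adhesion molecule of the immunoglobulin family, fell from 41.1, 40.6 and 35.7 FPKM in D-2 to 1.44, 1.43 and 4.70 in IT (log2 fold change -4.12 ± 0.53), with replicate 3 the highest of IT. CDH2 (N-cadherin) was at 3.62, 3.65 and 4.05 FPKM in IT and 15.3, 15.2 and 13.8 in D-2 (log2 fold change -2.13 ± 0.11), with a narrow spread in both groups. CDH2 and ALCAM were DEGs in all 18 alternative fits. Among 13 cadherin, desmosome and tight junction genes tested, CDH2 was the only member downregulated (7.69% against 2.81%). CDH4 (R-cadherin) was the 1 upregulated member (7.69% against 9.86%), from a low level (log2 fold change 1.74). CDH4 lost its call without D-2 replicate 1, 2 or 3 (adjusted p = 0.0864 to 0.123). The cation channel gene TRPC4 (log2 fold change -4.74), the cell size regulator PRR16 (-3.32), NUDT11 (-3.17) and ISLR (-3.09) were also among the 10 largest decreases, together with PMF1-BGLAP (-4.02), a readthrough of neighbouring genes whose reads cannot be separated from theirs. ISLR lost its call without D-2 replicate 1, 2 or 3 (adjusted p = 0.0543 to 0.0627).

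Collagen genes were split. Of 25 tested, 8 were upregulated (32% against 9.86%) and 5 downregulated (20% against 2.81%), with a median of 0.43. COL6A1 and COL6A2, chains of the beaded microfibrils around cells, were among the most abundant genes that rose. COL6A1 had an FPKM of 383, 432 and 887 in IT and 159.5, 177 and 183 in D-2, and COL6A2 had 312, 424 and 616 against 184, 198 and 200.03. Neither gene overlapped, and replicate 3 was the highest in both. COL7A1, the anchoring fibril collagen of basement membranes, had 3.12, 3.12 and 3.27 FPKM against 0.572, 0.811 and 0.846 (log2 fold change 1.92 ± 0.18, adjusted p = 0.00611), and COL15A1, also of basement membranes, had 4.57, 2.96 and 2.09 against 0.753, 0.712 and 0.699. Of the downregulated chains, COL3A1, a fibrillar collagen, was at 0.00671, 0.0137 and 0.0324 FPKM in IT and 0.773, 0.901 and 1.04 in D-2, so that it was barely detected in IT. COL4A1 and COL4A2, the chains of the common basement membrane network, which lie head to head and share a promoter, fell together (log2 fold change -1.35 and -1.07, named after their values were seen). Upregulated collagens numbered 8, 6 and 8 without IT replicates 1, 2 and 3, and 2, 2 and 4 without D-2 replicates 1, 2 and 3. Downregulated collagens numbered 4, 3 and 6 without IT replicates 1, 2 and 3, and 0, 0 and 1 without D-2 replicates 1, 2 and 3. COL6A1 lost its call without D-2 replicate 1, 2 or 3 (adjusted p = 0.0654 to 0.0799), COL6A2 without D-2 replicate 1, 2 or 3 (adjusted p = 0.0819 to 0.0984) and without IT replicate 3 by a change under 2-fold (log2 fold change 0.79, adjusted p = 0.0165) and COL15A1 without D-2 replicate 2 (adjusted p = 0.0504).

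Laminin and integrin genes changed in 1 direction where they were called. Of 24 tested, 5 were upregulated (20.8% against 9.86%) and 0 downregulated, with a median of -0.19. LAMA5, a laminin chain of mature basement membranes, had an FPKM of 8.08, 9.14 and 5.29 in IT and 1.23, 1.41 and 1.61 in D-2 (log2 fold change 2.23 ± 0.23), and LAMA3 had 1.96, 1.20 and 1.27 against 0.378, 0.539 and 0.516. Both were free of overlap. ITGA5, the fibronectin receptor chain, had 56.9, 58.3 and 69.7 FPKM in IT and 91.0, 91.5 and 93.0 in D-2, a log2 fold change of -0.74 that did not reach 2-fold (adjusted p = 0.0122). Upregulated laminin and integrin genes numbered 5, 5 and 4 without IT replicates 1, 2 and 3, and 1, 1 and 3 without D-2 replicates 1, 2 and 3. LAMA3 lost its call without D-2 replicate 1 or 2 (adjusted p = 0.0523 to 0.0555). Of 22 matrix proteases and inhibitors tested, 2 were upregulated (9.09% against 9.86%) and 1 downregulated (4.55% against 2.81%). ADAMTS14, a procollagen N-propeptidase, had 7.88, 11.1 and 3.41 FPKM in IT and 0.436, 0.556 and 0.778 in D-2 (log2 fold change 3.49 ± 0.47). MMP1, the interstitial collagenase, had 92.5, 51.6 and 64.7 against 27.1, 28.0 and 28.8, and it lost its call without D-2 replicate 1 or 2 (adjusted p = 0.0585 to 0.0607) and without IT replicate 1 by a change under 2-fold (log2 fold change 0.94, adjusted p = 0.0235). MMP14, a membrane-bound collagenase, had 190.4, 212 and 173 against 91.4, 94.6 and 95.8, without overlap and under 2-fold (log2 fold change 0.86, adjusted p = 0.00922). Among 8 keratins tested, KRT8 of simple epithelia was upregulated (12.5% against 9.86%, log2 fold change 1.16 ± 0.14). The hair keratin KRT81 was downregulated (12.5% against 2.81%), from 134, 124 and 119.8 FPKM in D-2 to 11.0, 4.87 and 44.5 in IT. KRT81 has close copies, so its reads may be shared, and it lost its call without IT replicate 1 or D-2 replicate 1, 2 or 3 (adjusted p = 0.0857 to 0.11).

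Interferon-stimulated genes were higher in IT. Of 26 tested, 8 were upregulated (30.8% against 9.86%) and 0 downregulated, and the median was 0.95. Of the 26, 17 lay wholly above D-2, against 6329 of all 19721 genes tested. BST2 (tetherin), which holds budding virus on the cell surface, had an FPKM of 69.5, 65.8 and 112 in IT and 16.7, 14.4 and 18.7 in D-2 (log2 fold change 2.14 ± 0.24, adjusted p = 0.00752). IFITM1, which blocks virus entry, had 39.2, 39.1 and 83.1 FPKM against 7.57, 8.67 and 10.5, and OAS2, a sensor of double-stranded RNA, had 2.04, 1.56 and 1.27 against 0.441, 0.425 and 0.388. The groups did not overlap in any of them. BST2 and IFITM1 were DEGs in all 18 alternative fits, and OAS2 in 17, all but limma with a pseudocount of 1. The median difference from D-2 was 1.20, 1.01 and 0.85 in IT replicates 1, 2 and 3 on the log2 FPKM scale. IFIT1, named after its values were seen, was not called, with a log2 fold change of 0.12. Upregulated interferon-stimulated genes numbered 5, 8 and 11 without IT replicates 1, 2 and 3, and 4, 3 and 5 without D-2 replicates 1, 2 and 3.

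The interferon-stimulated response element is bound by ISGF3, a complex that holds IRF9. Its core, searched as GAAANNGAA on both strands, was in 15 of the 19 promoters of the list in the RefSeq table (78.9%) and in 8.29% of all 27305. The promoters of BST2 and IFITM1 are shown, since these are the called genes of smallest p that hold it, with the matches in capitals. BST2 lies on the minus strand (chr19:17405581-17405880), and its overlapping matches start 130 and 124 bases before the start site. IFITM1 lies on the plus strand (chr11:313790-314089), with matches starting 40 and 6 bases before it.
BST2: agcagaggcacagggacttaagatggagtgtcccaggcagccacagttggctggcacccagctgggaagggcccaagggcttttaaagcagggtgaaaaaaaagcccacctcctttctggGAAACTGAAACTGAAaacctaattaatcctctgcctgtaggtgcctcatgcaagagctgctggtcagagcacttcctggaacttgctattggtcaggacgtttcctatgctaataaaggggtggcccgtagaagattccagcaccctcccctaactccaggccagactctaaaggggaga
IFITM1: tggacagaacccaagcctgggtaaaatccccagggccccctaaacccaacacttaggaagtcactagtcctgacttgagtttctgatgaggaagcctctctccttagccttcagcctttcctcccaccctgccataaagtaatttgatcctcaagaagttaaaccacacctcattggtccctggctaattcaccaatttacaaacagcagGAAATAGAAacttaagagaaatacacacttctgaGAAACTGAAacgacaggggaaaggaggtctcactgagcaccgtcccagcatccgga
A match says only that the letters are there.

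Genes of MHC class I presentation rose in part. Of 14 tested, 5 were upregulated (35.7% against 9.86%) and 0 downregulated, with a median of 0.93. Of the 14, 12 lay wholly above D-2, against 6329 of all 19721 genes tested. PSMB9, a subunit of the immunoproteasome, had an FPKM of 5.74, 7.48 and 7.81 in IT and 2.41, 2.53 and 2.58 in D-2 (log2 fold change 1.32 ± 0.17), and it was a DEG in all 18 alternative fits. The heavy chain gene HLA-B, named after its values were seen, had 95.7, 97.8 and 362 FPKM against 25.2, 26.0 and 24.8, with replicate 3 far above the others. HLA genes are near copies of each other, and reads may be split between them. Upregulated members numbered 5, 7 and 3 without IT replicates 1, 2 and 3, and 1, 1 and 1 without D-2 replicates 1, 2 and 3.

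Inflammatory cytokines and NF-kB targets were higher, with wide spread. Of 21 tested, 7 were upregulated (33.3% against 9.86%) and 0 downregulated, and the median was 1.51. By IT library the median difference was 0.43, 0.98 and 2.37 on the log2 FPKM scale, largest in replicate 3, and the median fold change without that library was 0.60. IL6, a cytokine of the acute phase, had an FPKM of 5.43, 3.68 and 14.1 in IT and 0.620, 0.733 and 0.370 in D-2 (log2 fold change 3.55 ± 0.58, adjusted p = 0.012). RELB, a subunit of NF-kB, had 6.94, 5.08 and 13.2 against 1.99, 1.43 and 2.20, and LIF, a cytokine of the same family as IL6, had 1.89, 0.661 and 1.01 against 0.273, 0.212 and 0.128. Each was higher in every IT library. CSF1, the most abundant member, was not called (log2 fold change 0.42). The number of upregulated members was 7, 6 and 5 without IT replicates 1, 2 and 3, and 0, 0 and 1 without D-2 replicates 1, 2 and 3. IL6 lost its call without D-2 replicate 1 or 2 (adjusted p = 0.0522 to 0.0564), RELB without D-2 replicate 1, 2 or 3 (adjusted p = 0.0504 to 0.0638) and LIF without D-2 replicate 1, 2 or 3 (adjusted p = 0.0595 to 0.072).

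The increases in the complement and coagulation list were in complement genes. Of 24 tested, 7 were upregulated (29.2% against 9.86%) and 2 downregulated (8.33% against 2.81%). CFB, the protease of the alternative pathway, had an FPKM of 22.1, 23.2 and 76.7 in IT and 2.75, 3.07 and 3.25 in D-2 (log2 fold change 3.58 ± 0.53), and C1S, a protease of the classical pathway, had 6.20, 6.55 and 20.3 against 1.04, 1.0002 and 0.995. Both were highest in replicate 3 and above D-2 in every library. The other upregulated members were C1R, C3, MASP1 and the near-identical pair C4A and C4B, whose reads cannot be told apart. The clotting trigger F3 was among the downregulated members. The fibrinogen genes FGB and FGG were not on the list, and both rose. FGB, named after its values were seen, had 142, 340 and 89 counts in IT and 0 in each D-2 library. FGG, a chain of fibrinogen that was on no list, had the smallest error of the 10 largest increases, with 3.93, 3.49 and 4.66 FPKM in IT and 0.116, 0.0937 and 0.0662 in D-2 (log2 fold change 5.23 ± 0.30, adjusted p = 0.00332). SAA2, an acute phase apolipoprotein, had 0.486, 4.99 and 5.76 against 0.115, 0.0830 and 0.127 FPKM, with replicate 1 lower than the other IT libraries. Upregulated genes of this list numbered 7, 6 and 6 without IT replicates 1, 2 and 3, and 1, 0 and 4 without D-2 replicates 1, 2 and 3. CFB lost its call without D-2 replicate 1 or 2 (adjusted p = 0.052 to 0.0527), C1S without D-2 replicate 1 or 2 (adjusted p = 0.0526 to 0.0533) and SAA2 without D-2 replicate 1, 2 or 3 (adjusted p = 0.0567 to 0.0652).

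ATF4 targets and immediate early genes held several strong increases. Of 21 ATF4 targets tested, 7 were upregulated (33.3% against 9.86%) and 0 downregulated (against 2.81%), while the median was 0.31. By IT library the median difference of the ATF4 targets was 1.03, 0.08 and 0.23 on the log2 FPKM scale, largest in replicate 1. DDIT3 (CHOP), a stress transcription factor, had an FPKM of 49.9, 18.9 and 36.2 in IT and 5.38, 4.77 and 3.70 in D-2 (log2 fold change 2.75 ± 0.36), and DDIT4, an inhibitor of mTORC1, had 75.0, 12.1 and 44.7 against 2.90, 3.56 and 4.32. Both were lowest in IT replicate 2, and neither overlapped. NUPR1, a small stress protein of chromatin, had 25.4, 13.3 and 17.0 against 6.70, 7.45 and 7.17. The other upregulated members were ATF3, SESN2, TRIB3 and VLDLR. GDF15, a secreted stress hormone of the TGF-beta family, followed the same order of IT libraries, with 21.7, 1.87 and 18.8 FPKM in IT against 0.303, 0.221 and 0.199 in D-2 (log2 fold change 5.66 ± 0.93). The number of upregulated ATF4 targets was 4, 9 and 8 without IT replicates 1, 2 and 3, and 1, 1 and 1 without D-2 replicates 1, 2 and 3. DDIT4 lost its call without D-2 replicate 1, 2 or 3 (adjusted p = 0.0501 to 0.0623), NUPR1 without D-2 replicate 1, 2 or 3 (adjusted p = 0.0535 to 0.063) and without IT replicate 1 by a change under 2-fold (log2 fold change 0.97, adjusted p = 0.0249) and GDF15 without D-2 replicate 1 or 2 (adjusted p = 0.0543 to 0.0564). Of 19 immediate early genes tested, 6 were upregulated (31.6% against 9.86%) and 2 downregulated (10.5% against 2.81%). ZFP36, which destabilises cytokine mRNAs, had 17.7, 11.0 and 14.9 FPKM in IT and 4.95, 4.57 and 4.85 in D-2 (log2 fold change 1.43 ± 0.19). JUND and IER3 rose too (log2 fold change 1.55 and 1.59). FOSL1 (FRA1), the most abundant member, fell from 135, 134 and 118 FPKM in D-2 to 68.0, 82.7 and 27.1 in IT. The number of upregulated immediate early genes was 5, 8 and 6 without IT replicates 1, 2 and 3, and 1, 1 and 2 without D-2 replicates 1, 2 and 3. JUND lost its call without D-2 replicate 1 or 2 (adjusted p = 0.0543 to 0.0564), IER3 without D-2 replicate 1, 2 or 3 (adjusted p = 0.0589 to 0.0623) and FOSL1 without IT replicate 1 or D-2 replicate 1, 2 or 3 (adjusted p = 0.0994 to 0.126) and without IT replicate 3 by a change under 2-fold (log2 fold change -0.91, adjusted p = 0.00759). TXNIP, an inhibitor of thioredoxin and of glucose uptake, had 62.7, 17.2 and 312 FPKM in IT and 3.18, 3.38 and 3.00 in D-2 (log2 fold change 5.19 ± 1.06), above D-2 in every library but with a wide spread within IT. TXNIP lost its call without D-2 replicate 1, 2 or 3 (adjusted p = 0.0666 to 0.0748).

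Of 24 genes of the hypoxia and glycolysis list tested, 3 were upregulated (12.5% against 9.86%) and 1 downregulated (4.17% against 2.81%), shares near those of all genes. VEGFA, the vascular growth factor, had an FPKM of 42.9, 22.0 and 42.2 in IT and 4.81, 5.53 and 5.74 in D-2 (log2 fold change 2.56 ± 0.27, adjusted p = 0.0071). SLC2A3 (GLUT3), a glucose transporter, had 22.4, 15.1 and 22.8 against 4.94, 5.65 and 4.95, and the third was NDRG1, named after its values were seen (log2 fold change 2.04). LDHA, which makes lactate, was downregulated, with 101, 104 and 92.7 against 186, 201 and 244 FPKM (log2 fold change -1.26 ± 0.14). The groups did not overlap for VEGFA, SLC2A3 or LDHA, and each was a DEG in all 18 alternative fits. ENO1, the most abundant enzyme, had a log2 fold change of -0.48 (adjusted p = 0.0567). STC1, a glycoprotein hormone on the insulin-like growth factor (IGF) list, had 84.6, 51.2 and 34.8 against 9.56, 10.3 and 8.33 FPKM.

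Growth factor genes showed single large increases. Of 16 genes tested on the IGF and binding protein list, 4 were upregulated (25% against 9.86%) and 0 downregulated. STC1, which is neither an IGF nor an IGF-binding protein, was among the 4. IGFBP5, which binds IGFs in the matrix, had an FPKM of 41.4, 14.7 and 13.8 in IT and 1.01, 0.985 and 1.504 in D-2 (log2 fold change 4.14 ± 0.50, adjusted p = 0.00752), highest in replicate 1. IGFBP4, the most abundant member, had 228, 199 and 195 against 109, 101 and 105, without overlap and under 2-fold (log2 fold change 0.81). The number of upregulated members was 3, 5 and 4 without IT replicates 1, 2 and 3, and 2, 2 and 3 without D-2 replicates 1, 2 and 3. Of 15 BMP, TGF-beta and activin ligands, 4 were upregulated (26.7% against 9.86%), GDF15, INHA, BMP8A and INHBE, and 0 downregulated, and TGFB1, the most abundant, had a log2 fold change of -0.33. Upregulated ligands numbered 3, 4 and 4 without IT replicates 1, 2 and 3, and 0, 0 and 1 without D-2 replicates 1, 2 and 3. Of 12 BMP targets, 1 was upregulated (8.33%, below the 9.86% of all genes) and 2 downregulated (16.7% against 2.81%). NOG (noggin), a secreted BMP antagonist, was upregulated (log2 fold change 2.05), and SMAD7 and ATOH8 were downregulated (-1.04 and -1.24), while ID3 was not called (-0.998, adjusted p = 0.111). By IT library the median difference of the BMP targets was -1.22, -0.81 and 0.29, so replicate 3 went against the other IT libraries. Without IT replicate 3, 6 of the BMP targets were downregulated, against 432 of all 18309 genes tested. Of 20 Wnt genes, 1 was upregulated (5%, below 9.86%) and 2 downregulated (10% against 2.81%). RNF43, which removes Frizzled receptors, was upregulated (log2 fold change 1.51), and the secreted Wnt inhibitor DKK1 and the ligand WNT5B were downregulated. DKK1 had 13.3, 13.0 and 6.40 FPKM in IT and 53.0, 52.4 and 43.2 in D-2 (log2 fold change -2.35 ± 0.29) and was a DEG in all 18 alternative fits. Of 19 genes of EGF signalling, 4 were upregulated (21.1% against 9.86%) and 1 downregulated (5.26% against 2.81%), and the upregulated ones numbered 3, 3 and 4 without IT replicates 1, 2 and 3, and 1, 1 and 1 without D-2 replicates 1, 2 and 3. The median difference of the EGF list by IT library was 0.53, 0.40 and -0.52, so replicate 3 went the other way. DUSP5, a nuclear phosphatase of ERK that ERK itself induces, had 162, 79.1 and 96.1 FPKM against 22.6, 20.6 and 22.1 (log2 fold change 2.19 ± 0.26), and the ligand TGFA fell from 0.751, 0.740 and 0.974 FPKM in D-2 to 0.210, 0.0954 and 0.156 in IT. NOG lost its call without D-2 replicate 1, 2 or 3 (adjusted p = 0.0613 to 0.0677), SMAD7 without IT replicate 1 or 2 or D-2 replicate 1, 2 or 3 (adjusted p = 0.0675 to 0.0853) and ATOH8 without IT replicate 1 or 2 or D-2 replicate 1, 2 or 3 (adjusted p = 0.07 to 0.101). INHA lost its call without D-2 replicate 1, 2 or 3 (adjusted p = 0.0501 to 0.0548), RNF43 without D-2 replicate 1, 2 or 3 (adjusted p = 0.0549 to 0.0669) and WNT5B without D-2 replicate 1, 2 or 3 (adjusted p = 0.0532 to 0.0709).

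Organelle and metabolic lists had few calls. Of 27 lysosome genes tested, 4 were upregulated (14.8% against 9.86%) and 0 downregulated, and the upregulated ones numbered 3, 5 and 3 without IT replicates 1, 2 and 3, and 1, 1 and 2 without D-2 replicates 1, 2 and 3. PSAP (prosaposin), the precursor of lipid-degrading cofactors, had an FPKM of 502, 298 and 574 in IT and 165, 166 and 160.3 in D-2, and NPC1, the lysosomal cholesterol transporter, had 45.7, 26.3 and 38.2 against 13.1, 12.1 and 11.9 (log2 fold change 1.40 ± 0.20). Of 27 NRF2 targets, 3 were upregulated (11.1%, near the 9.86% of all genes), AKR1B10, ABCC3 and FTH1 (ferritin heavy chain), and 0 downregulated. FTH1, the most abundant upregulated gene, had 672, 489.7 and 1118 FPKM in IT and 349, 329 and 331 in D-2, at the edge of the 2-fold limit (log2 fold change 1.01 ± 0.29). FTH1 has many processed copies in the genome, and its reads may be shared with them. Of 23 cholesterol genes, 1 was upregulated (4.35% against 9.86%), TM7SF2, a sterol reductase. Without IT replicate 3, 7 of them were upregulated, against 1546 of all 18309 genes tested. The median difference of the cholesterol genes by IT library was 0.65, 0.98 and -0.41. TCACNCCAC, a sterol element, was in 1 of the 18 promoters of this list in the RefSeq table (5.56%) and in 1.15% of all. Of 13 genes of fatty acid synthesis, 1 was downregulated (7.69% against 2.81%), ACACB, from 0.180, 0.161 and 0.165 FPKM in D-2 to 0.0596, 0.0862 and 0.110 in IT. Of 17 chaperones of the endoplasmic reticulum and their partners, XBP1 and DNAJB9 were upregulated (11.8% against 9.86%, log2 fold change 1.07 and 1.68). Of 4 metallothioneins tested, MT1L was downregulated (25% against 2.81%, log2 fold change -1.21). None of 74 cytosolic ribosomal protein genes was a DEG (median -0.17, 64 of them below 0), and of 24 HOX genes 3 were upregulated (12.5%, near 9.86%), HOXB9, HOXB3 and HOXD3. PSAP lost its call without D-2 replicate 1, 2 or 3 (adjusted p = 0.0532 to 0.0596), and FTH1 without IT replicate 1 or D-2 replicate 1, 2 or 3 (adjusted p = 0.072 to 0.129) and without IT replicate 3 by a change under 2-fold (log2 fold change 0.65, adjusted p = 0.0203). TM7SF2 lost its call without IT replicate 1 or D-2 replicate 1, 2 or 3 (adjusted p = 0.0555 to 0.0946), XBP1 without D-2 replicate 1, 2 or 3 (adjusted p = 0.06 to 0.0753) and without IT replicate 1 by a change under 2-fold (log2 fold change 0.81, adjusted p = 0.0225) and DNAJB9 without D-2 replicate 1, 2 or 3 (adjusted p = 0.082 to 0.0859). ACACB lost its call without IT replicate 1 or 2 or D-2 replicate 1, 2 or 3 (adjusted p = 0.0878 to 0.134), and MT1L without IT replicate 1 or 3 or D-2 replicate 1, 2 or 3 (adjusted p = 0.051 to 0.112). Of the NRF2 targets, AKR1B10 lost its call without D-2 replicate 2 (adjusted p = 0.0543) and ABCC3 without D-2 replicate 1, 2 or 3 (adjusted p = 0.0668 to 0.0822). HOXB9 lost its call without D-2 replicate 1, 2 or 3 (adjusted p = 0.0565 to 0.0742), HOXB3 without IT replicate 1 or 2 or D-2 replicate 1, 2 or 3 (adjusted p = 0.0876 to 0.123) and HOXD3 without D-2 replicate 1 or 2 (adjusted p = 0.0711 to 0.125).

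**Figure D3:**
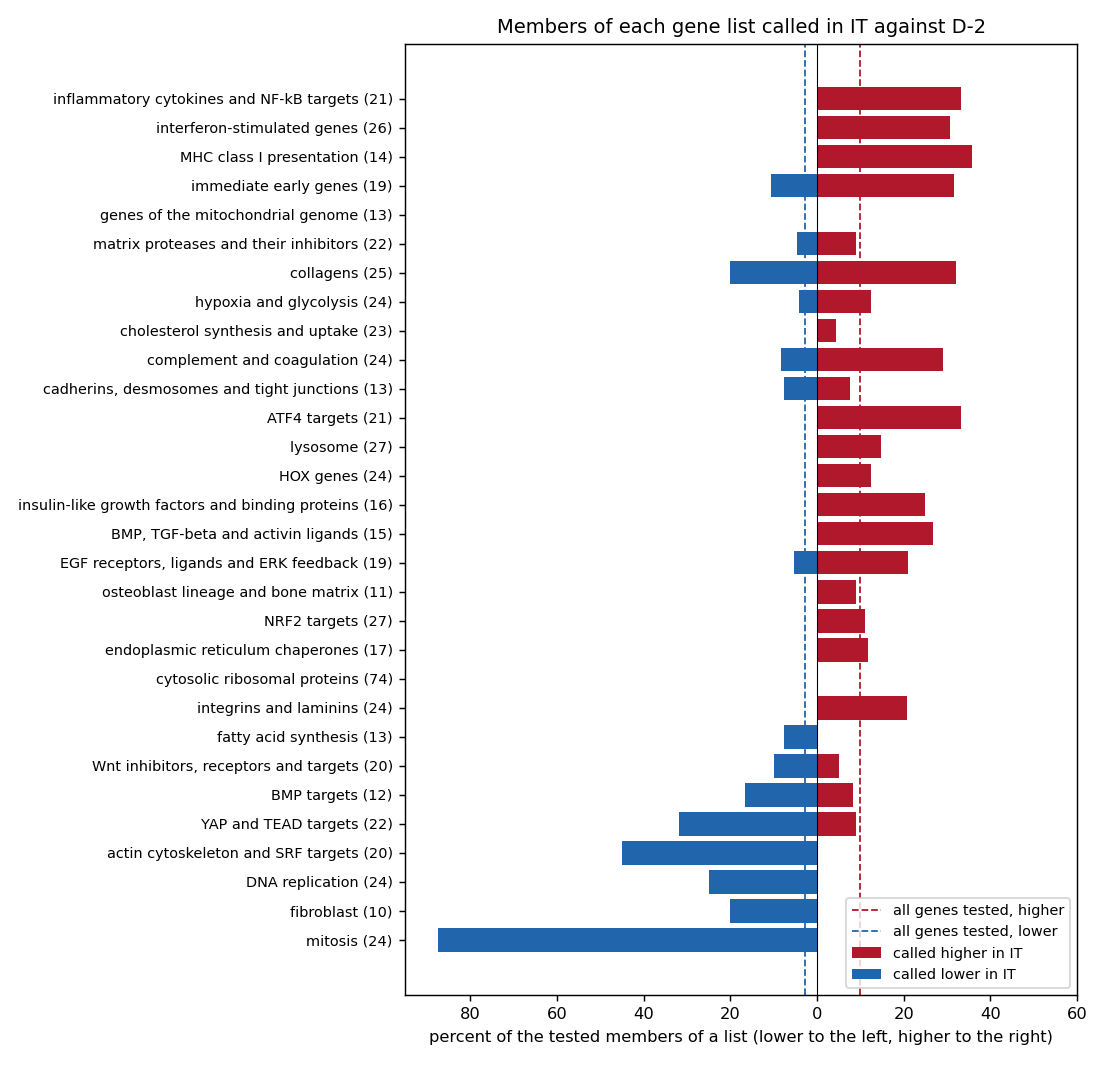
Bars give the percent of the tested members of each list (their number in brackets) that were upregulated (red, to the right) or downregulated (blue, to the left) in IT, for lists with at least 10 tested members, sorted by median fold change. Dashed lines mark the shares over all genes tested, 9.86% and 2.81%. The mitosis bar reaches 87.5%.

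The largest increases among genes detected in all 6 libraries were in genes of varied function. GALNT15, an enzyme that starts O-linked glycans, had an FPKM of 5.21, 4.48 and 13.2 in IT and 0.109, 0.0831 and 0.0372 in D-2 (log2 fold change 6.46 ± 0.63, adjusted p = 0.00655). SLC14A1, a urea transporter, had 11.8, 8.26 and 3.16 against 0.0615, 0.117 and 0.141 (log2 fold change 5.95 ± 0.60). Both were near the floor of the assay in D-2 and present in every IT library, and both were DEGs in all 18 alternative fits. FUT1, a fucosyltransferase of blood group H, had 3.24, 0.295 and 0.312 FPKM in IT, highest in replicate 1. The histone gene H2BU1 (0.594, 0.314 and 5.32 FPKM in IT) and the non-coding LINC02154 (5.02, 0.780 and 14.6) were highest in replicate 3. MRPL23-AS1, antisense to a ribosomal protein gene of mitochondria, rose from 0.0573, 0.0357 and 0.121 FPKM in D-2 to 1.905, 2.73 and 6.16 in IT, and it was not stated whether counting used the strand. The mitochondrial transfer RNA gene MT-TY was among the 5 most abundant upregulated genes (log2 fold change 1.12). FUT1 lost its call without D-2 replicate 1, 2 or 3 (adjusted p = 0.0678 to 0.1), H2BU1 without D-2 replicate 1, 2 or 3 (adjusted p = 0.0764 to 0.1), LINC02154 without D-2 replicate 1, 2 or 3 (adjusted p = 0.0742 to 0.0818) and MT-TY without D-2 replicate 1 or 2 (adjusted p = 0.0545 to 0.0549).

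Some DEGs were not above the detection limit of 12 counts in any library of a group. There were 298 such genes in D-2 alone, 71 of them protein-coding, and 33 in IT alone, 13 of them protein-coding. Another 49 DEGs were at the limit in both groups and are given no fold. For those at the limit in 1 group, folds are lower bounds against 12 counts in the shallowest library of the group at the limit. The protein-coding gene with the largest bound, named after its values were seen, was B4GALNT3, a glycosyltransferase, which was at least 39.7-fold higher in IT. NEGR1, a neural adhesion molecule with 0 counts in every IT library, was at least 25.7-fold lower in IT. By FPKM, the most abundant of those at the limit in D-2 were MIR221 and the small nucleolar RNAs SNORD69 and SNORD19C, at least 4.81-, 2.80- and 2.57-fold higher in IT. The libraries were made from poly(A) RNA, so MIR221 stands for the precursor transcript and not for the mature microRNA, and such short genes reach a high FPKM with few counts. At the limit in IT were DUXAP8, AL021707 and SNORA14B, at least 14.8-, 5.91- and 1.23-fold lower. DUXAP8 had 6.45, 0.0793 and 5.96 FPKM in the D-2 libraries, so replicate 2 was also at the limit. Among these 6 genes, DUXAP8 lost its call without IT replicate 1, 2 or 3 or D-2 replicate 1 or 3 (adjusted p = 0.0774 to 0.102), SNORA14B without IT replicate 1, 2 or 3 or D-2 replicate 1, 2 or 3 (adjusted p = 0.0504 to 0.0804), MIR221 without IT replicate 1 or D-2 replicate 1 or 2 (adjusted p = 0.0543 to 0.0798), SNORD69 without IT replicate 1 or 3 or D-2 replicate 1, 2 or 3 (adjusted p = 0.0597 to 0.116) and SNORD19C without D-2 replicate 1, 2 or 3 (adjusted p = 0.0754 to 0.0875).

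Levels in the other groups place these differences side by side, without a test. FIT replicate 3 was much shallower than the other FIT libraries. CCNB2 was at 13.3 ± 1.45 FPKM (mean ± SD, n = 3) in IT and 14.8 ± 3.66 in FIT, while D-3 had 18.5 ± 5.37 and DP-3 had 24.7 ± 0.606, so D-2 (28.0 ± 0.870) and DP-3 were at the top. TAGLN was lower in all the other groups, between 2.24 ± 0.469 in IT and 3.85 ± 0.555 in DP-3, than in D-2 (12.02 ± 1.26). BST2 levels, from low to high, came in the order D-2, DP-3 day 1, DP-3, D-3, IT and FIT, from 16.6 ± 2.15 to 115 ± 66.2 FPKM, and the last 3 were within their spread. VEGFA was at 35.7 ± 11.9 in IT, 26.4 ± 1.10 in D-3 and 21.2 ± 3.15 in FIT. Genes of stress went another way. GDF15 was at 46.2 ± 23.5 FPKM in D-3 and 14.1 ± 10.7 in IT but 1.10 ± 0.603 in FIT, and DDIT3 was at 107 ± 40.2, 35.0 ± 15.5 and 9.30 ± 1.87. IL6 was at 10.4 ± 2.77, 7.73 ± 5.57 and 0.752 ± 0.524 in the same order. IGFBP5 was high in tumor-derived tissue, with 70.1 ± 42.6 in FIT and 23.3 ± 15.7 in IT, while D-2 had 1.17 ± 0.292, DP-3 had 1.26 ± 0.453 and D-3 had 1.002 ± 0.649.

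**Figure D4:**
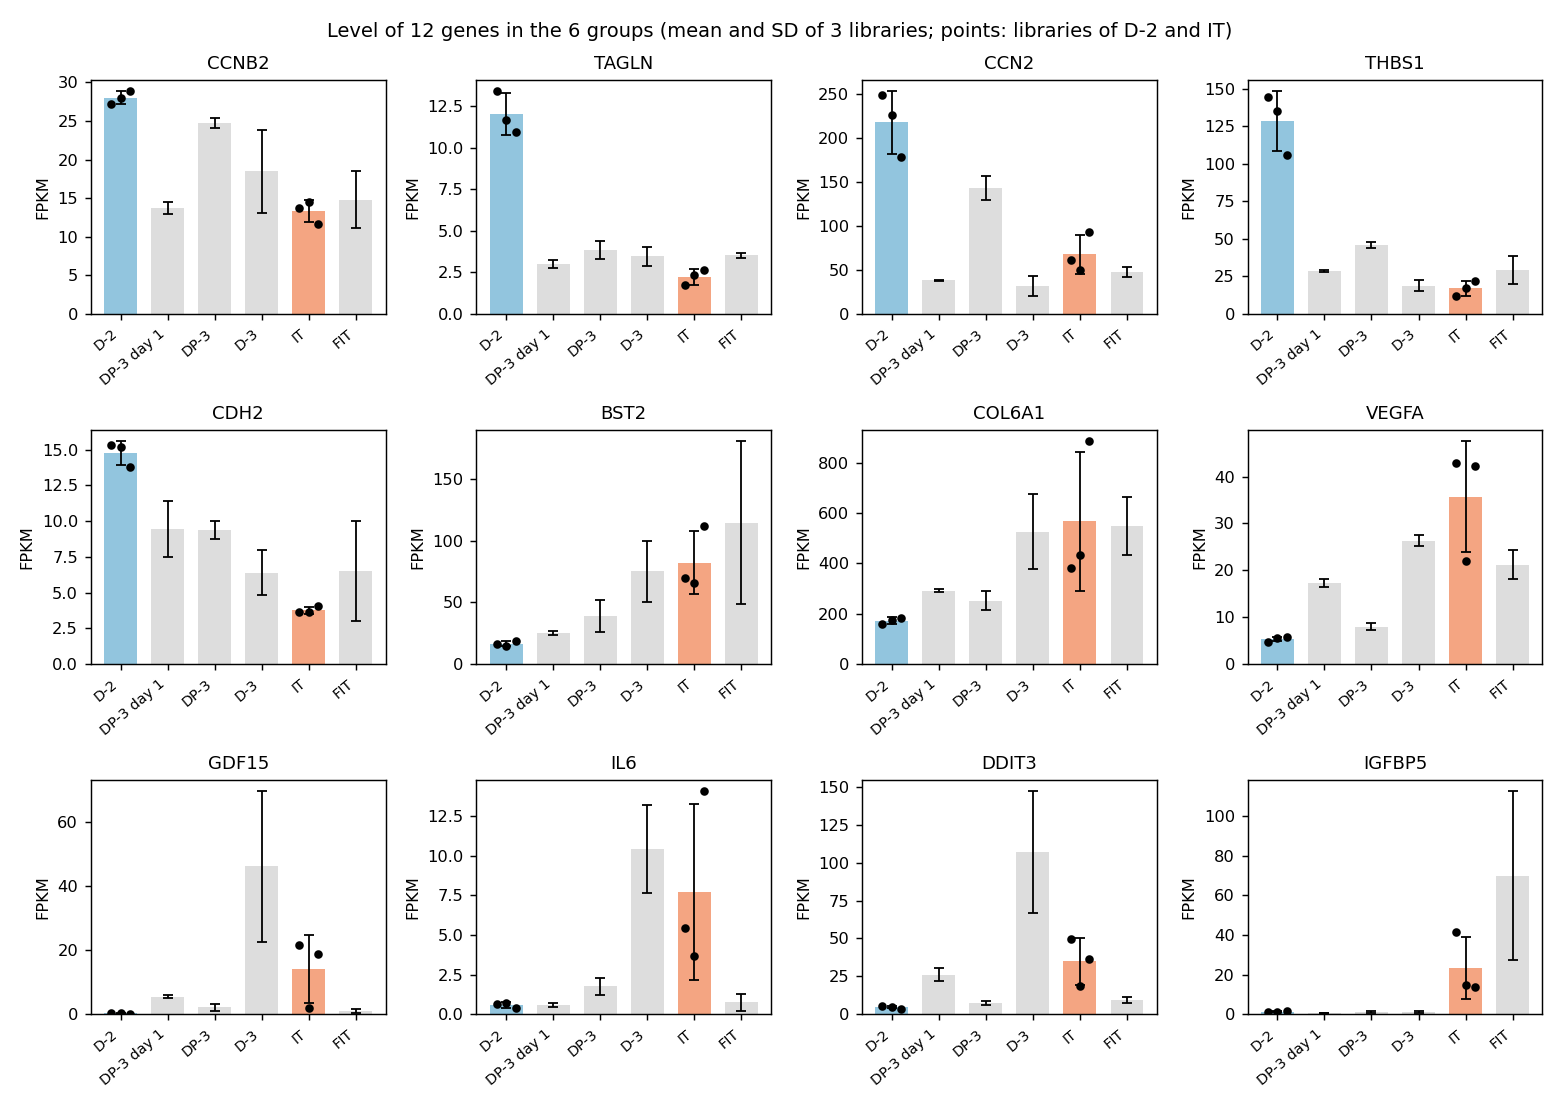
Bars show the mean FPKM of 12 genes in the 6 groups with SD error bars (n = 3 libraries) on linear axes from 0, and points mark the single libraries of D-2 and IT. CCNB2, TAGLN, CCN2, THBS1 and CDH2 are highest in D-2, and GDF15, IL6 and DDIT3 are higher in D-3 and IT than in FIT.

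A comparison of tumor with cell culture that shares no library with IT and D-2 is FIT against D-3, although pieces of IT and FIT may come from the same mice. FIT replicate 3 had a total of 23721666 counts, against 64271701 and 65871171 in FIT replicates 1 and 2. There, 2.17% of 21676 genes tested were called higher in FIT and 4.29% lower. These 1399 calls became 712, 632 and 1495 without FIT replicates 1, 2 and 3, and 347, 1310 and 240 without D-3 replicates 1, 2 and 3. Of the 1944 genes upregulated in IT, 1883 were tested, and 70 were higher in FIT (3.72%) and 157 lower (8.34%). Of the 554 downregulated in IT, 527 were tested, and 6 were higher in FIT (1.14%) and 39 lower (7.40%). Among the 19131 genes tested in both comparisons, 2.22% were higher in FIT and 3.86% lower. IGFBP5 and GALNT15 were higher in FIT than in D-3 (log2 fold change 6.19 and 3.00), as they were in IT against D-2. ANKRD1 and DKK1 were lower in both comparisons (-4.60 and -2.25). GDF15, IL6, DDIT3 and FTH1 were lower in FIT than in D-3 (-5.27, -3.64, -3.46 and -2.02), whereas they were higher in IT than in D-2. The mitosis gene CCNB2 was not called there (-0.26, adjusted p = 0.585), nor was TAGLN (0.09, adjusted p = 0.823).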

How the data were processed

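RNA-seq of 18 libraries (6 groups of 3) was measured by the study on poly(A) RNA selected with oligo(dT), from strand-marked (dUTP) libraries. Per the submitters' processing notes the tools were cutadapt 1.9, HISAT2 2.0.4, StringTie 1.3.4d, DESeq2 and edgeR. The genome build, the annotation and whether counting used the strand are not given in the sources used here. The authors deposited an estimated count and an FPKM for each of 50119 genes and each library. Of low counts (up to 40), 35.0% were multiples of 4 against 25% by chance, so the counts were treated as estimates and rounded. No per-sample column was left unused (0). Totals were 57049025 to 79082786 counts in IT and D-2. SEs come from the fit and include the spread between libraries, whereas the detection limit covers counting error only.

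Genes with at least 0.1 FPKM in 3 of the 6 libraries were tested with edgeR's quasi-likelihood test (edgeR 4.0.16, R 4.3.3) on TMM-scaled counts, without a replicate term, and Benjamini-Hochberg adjustment over all genes tested. DEGs had an adjusted p below 0.05 and at least a 2-fold change. The SE of a log2 fold change is its size over the square root of F. Fold changes differ from FPKM ratios through TMM scaling. DESeq2 1.42.0, limma 3.58.1 on log2(FPKM + pseudocount), other filters and scalings, a replicate block, 1 fit of all 18 libraries and leaving out each library were alternatives. A fit on protein-coding genes alone was chosen after seeing the data. The code was tested on simulated data.

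Members and gene lists (39 lists, 855 genes, 849 matched) were chosen with earlier results of these data known. Named genes were the 10 largest changes in each direction (a group mean of 1 FPKM or more, no overlap, above 0 in all 6 libraries, no clone names), the 5 most abundant DEGs in each direction, in each list the 3 genes of smallest p and the most abundant, and the 3 most abundant DEGs at the detection limit of 12 counts in either group. Any other gene named was chosen after its values were seen, and its fit without single libraries is not given. Gene types came from GENCODE 29 (48223 of 50119 genes), and promoters from RefSeq GRCh38.p14. The mitosis motifs were chosen after the list counts were known. A few list members are counted in their lists but not reported here by name.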

Additional observations from a re-analysis of the deposited data

How the results depend on the processing

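The count of DEGs between IT and D-2 (2498, with 1944 higher and 554 lower in IT) was 1396 (1124 and 272) with an FPKM minimum of 1, 760 (588 and 172) with limma at a pseudocount of 1, and 1614 (1283 and 331) on protein-coding genes alone, an alternative chosen after seeing the data. With limma at a pseudocount of 0.01, 343 genes were lower. DESeq2 called 3421, and without a filter 2026 were called. Leaving out 1 library gave 515 to 2124 DEGs, 387 to 1546 higher and 121 to 700 lower, and the lowest of each came from fits without a D-2 library. Between FIT and D-3 (1399), DESeq2 called 2498, limma at a pseudocount of 1 called 739, and leaving out 1 library gave 240 to 1495. The causes were not tested. Of the 108 named DEGs, 39 were called in every alternative that tested them. Without D-2 replicates 1, 2 and 3, 59, 60 and 45 lost their call, and without IT replicates 1, 2 and 3, 20, 8 and 12.

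With the replicate number as a block, 1560 genes were called between IT and D-2 (1081 higher, 479 lower) and 904 between FIT and D-3. Deviations of same-numbered IT and D-2 libraries from their group means correlated at 0.0447, 0.0347 and 0.0677, and the main fit did not treat the numbers as pairs. Each IT library correlated best with its own number, a hint from the data and not from the design.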
